A study of Mus musculus with 12 samples.

Results

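A group of 10 genes of antigen presentation was followed in mouse neutrophils and macrophages exposed to calcitonin gene-related peptide (CGRP). They were chosen by symbol: the class II chain genes *H2-Aa*, *H2-Ab1* and *H2-Eb1*, the peptide loading genes *H2-DMa* and *H2-DMb1*, the invariant chain gene *Cd74*, the class II transactivator gene *Ciita*, and the costimulation genes *Cd40*, *Cd80* and *Cd86*. All 10 were found among the 52636 genes that are listed for each cell type. Enough counts for a test were present for 8 of the 10 in neutrophils (not for *Ciita* and *Cd80*) and for 9 of the 10 in macrophages (not for *Cd80*).

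The cells came from the bone marrow of wild-type C57BL/6J mice aged 8 to 12 weeks, and RNA was sequenced from 3 libraries in each of 4 groups. Neutrophils were enriched with a kit, used fresh and kept in RPMI for 4 h with 1 nM CGRP or with PBS (saline). Monocytes, also isolated with a kit, were first grown for 3 days in DMEM/F12 with 10 ng/ml of the growth factor M-CSF, and then received CGRP or saline in the same way. The sample labels call these cells monocyte/macrophage, and they are called macrophages here. Cell type cannot be told apart from culture and medium, since each cell type had its own. The sources used here do not say whether libraries of a group came from separate mice or cultures, so the p-values measure the spread between these libraries, which may be technical. The neutrophil libraries held from 2196558 to 3631989 counts each, and the macrophage libraries from 2002559 to 3477069. Levels are given as CPM, a gene's counts per 1000000 of the library size after scaling by TMM. In RNA from a mixed preparation, fewer cells of a type and less RNA per cell cannot be told apart.

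MHC class II molecules carry peptides from engulfed material to the cell surface, where CD4+ T cells read them. An alpha and a beta chain assemble on the invariant chain, the invariant chain is cut away in endosomes by proteases such as cathepsins, and H2-DM exchanges the fragment left behind for a peptide. The transactivator CIITA switches on the genes of this pathway, while CD80 and CD86 on the presenting cell engage CD28 on the T cell and CD40 receives the signal of CD40 ligand.

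Of the 6 genes that encode the class II chains, the invariant chain and H2-DM, 5 lie close together in the major histocompatibility complex on chromosome 17 (GRCm38). *H2-DMa* (ENSMUSG00000037649, chr17:34119541-34139101) is followed by *H2-DMb1* (ENSMUSG00000079547, chr17:34153072-34160230), *H2-Ab1* (ENSMUSG00000073421, chr17:34257689-34269419), *H2-Aa* (ENSMUSG00000036594, chr17:34282744-34287823) and *H2-Eb1* (ENSMUSG00000060586, chr17:34305867-34316674). *Ciita* (ENSMUSG00000022504, chr16:10480059-10528418), *Cd86* (ENSMUSG00000022901, chr16:36603869-36666081) and *Cd80* (ENSMUSG00000075122, chr16:38455561-38496335) are on chromosome 16, and *Cd40* (ENSMUSG00000017652, chr2:165055627-165072948) is on chromosome 2. *H2-Aa* and *Cd86* are on the minus strand and the other 8 on the plus strand.

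Class II promoters are known for a module with a CCAAT element, the Y box. RefSeq promoter sequence (GRCm38.p6) was found for 5 of the 10 genes. The 120 bases before the start site are shown for the 3 of them that held the letters TGATTGG. With CGRP, 2 of these 3 genes rose in macrophages and the third did not pass the test. No promoter sequence was found for *H2-Ab1* and *Cd86*, which also rose, and a link between these letters and the response to CGRP was not tested. Capitals mark TGATTGG in each sequence and, in *H2-Aa*, also TGACGTCA, the letters of a cAMP response element. The windows are chr17:34287824-34287943 on the minus strand for *H2-Aa*, chr17:34305747-34305866 on the plus strand for *H2-Eb1* and chr17:34153071-34153190 on the plus strand for *H2-DMb1*.
H2-Aa: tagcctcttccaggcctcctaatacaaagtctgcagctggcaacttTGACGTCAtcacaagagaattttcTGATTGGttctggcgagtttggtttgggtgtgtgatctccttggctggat
H2-Eb1: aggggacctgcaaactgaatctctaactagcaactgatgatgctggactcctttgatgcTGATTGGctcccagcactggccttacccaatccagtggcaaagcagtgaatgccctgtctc
H2-DMb1: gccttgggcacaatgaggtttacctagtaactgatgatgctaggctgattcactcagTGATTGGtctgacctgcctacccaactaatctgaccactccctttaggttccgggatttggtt

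Counted from the RefSeq start site, TGATTGG began 50 bases before it in *H2-Aa*, 61 in *H2-Eb1* and 63 in *H2-DMb1*. For *H2-DMb1* the GENCODE gene span given above starts earlier than the RefSeq start site, so that its window lies almost wholly inside that span. Both motifs were searched on both strands of the window from 250 bases before to 50 after the start, after the sequences had been seen, and they do not overlap each other. Of 32851 promoters, 7.82% held TGATTGG and 1.79% held TGACGTCA. The windows of *H2-DMa* and *Cd80* held neither. These matches describe letters and say nothing of what binds there.

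With saline, macrophages held far more class II RNA than neutrophils. In limma-voom over the 12 libraries, 8 of the 9 genes tested were higher in macrophages, where 32.5% of all genes tested were higher and 67.9% differed in either direction. *Cd74*, which encodes the invariant chain, was at 245.5, 235.9 and 245.4 CPM in the neutrophil libraries and at 2033, 1890 and 2085 CPM in the macrophage libraries, a difference of 8.01-fold (log2 3.00, 95% interval 2.73 to 3.27, adjusted p = 3.34e-15). The differences for the chain genes were 14.3-fold for *H2-Aa*, 11.7-fold for *H2-Ab1* and 14.4-fold for *H2-Eb1*. For the loading genes they were 3.55-fold for *H2-DMa* and 8.64-fold for *H2-DMb1*. *Cd40* was 3.02-fold higher in macrophages (adjusted p = 1.56e-04 in limma-voom).

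Among the 9 genes tested, *Cd86* had the smallest fold change between the cell types. Its saline libraries were at 33.02, 34.47 and 37.05 CPM in neutrophils and at 39.6, 43.03 and 48.24 CPM in macrophages. These groups did not overlap, as for 70.5% of all genes tested, but the difference did not pass the test (log2 fold change 0.27, 95% interval −0.07 to 0.61, adjusted p = 0.148 in limma-voom).

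The neutrophil libraries also held RNA of marker genes of other cells that carry class II. Its summed B cell markers (10 genes, *Ighm* the most abundant at 604 CPM) were at 753.5, 749.7 and 790.5 CPM with saline, beside 601.8, 591.7 and 635.9 CPM for the 6 class II genes together. The B cell marker *Cd79a*, a chain of the B cell receptor complex, had 15, 13 and 15 counts in these libraries. The monocyte and macrophage markers summed to 24850 ± 2687 CPM (SD, n = 3), of which *Lyz2*, which neutrophils also express, gave 21340 CPM. The part of such cells in the neutrophil class II level was not tested. In macrophages the summed B cell markers were at 150.9 ± 14.03 CPM, *Cd79a*, *Ms4a1*, *Pax5* and *Vpreb3* were at 0 counts in every library, while *Ighm* was at 98.09 CPM, *Cd79b* at 32.38 CPM and *Cd22* at 19.32 CPM, the last above its 2.803 CPM in neutrophils. In macrophages the neutrophil markers summed to 298.2 ± 41.97 CPM against 121200 ± 23950 CPM in neutrophils.

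**Figure D1:**
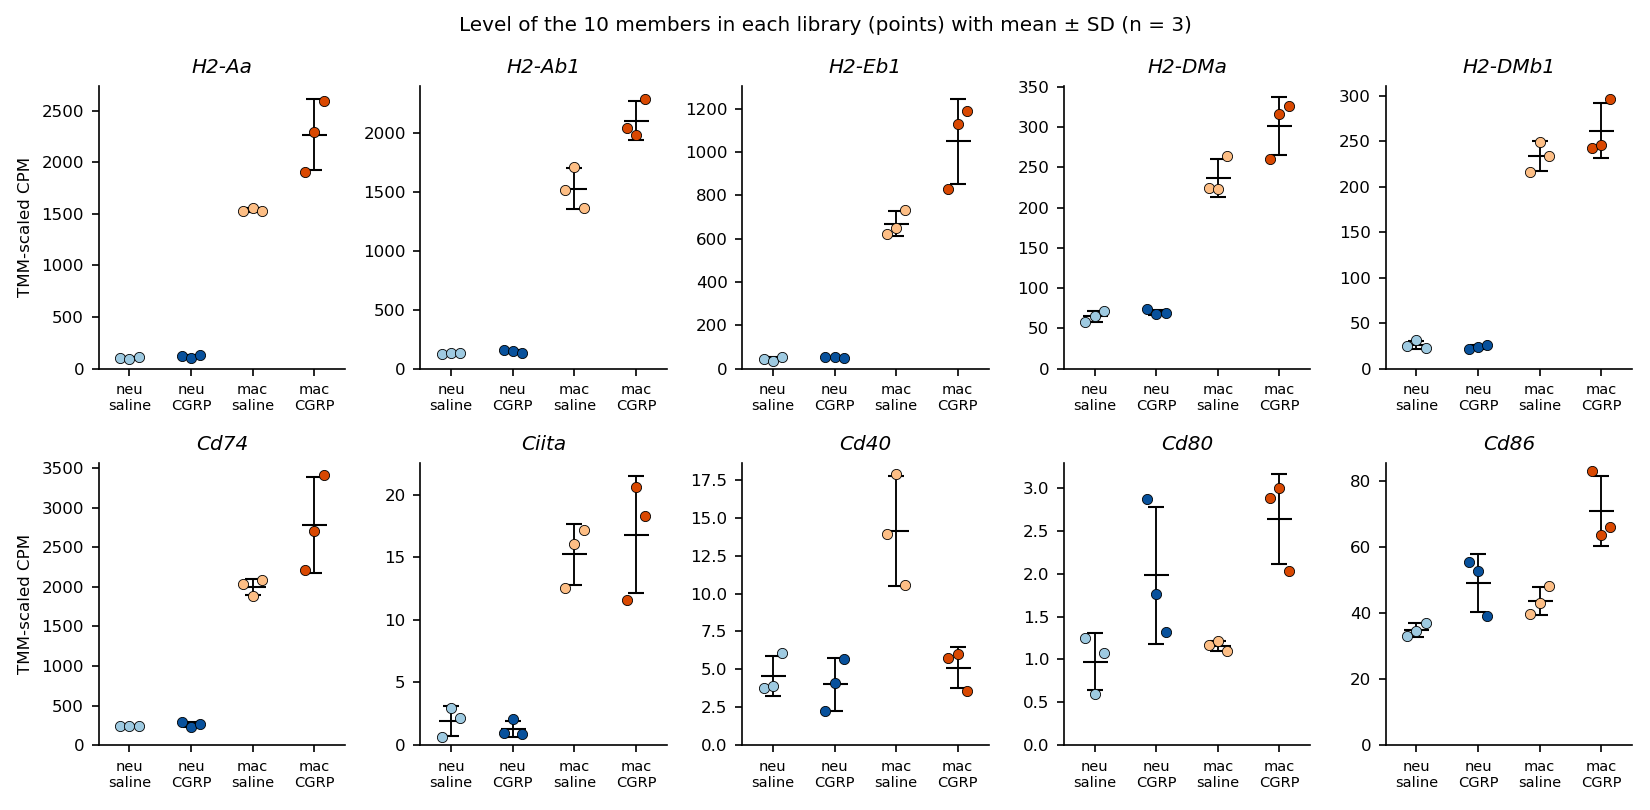
Level of each of the 10 genes in TMM-scaled CPM (linear axes from 0, with a scale of its own for each gene) in the 12 libraries by group (neu, neutrophils; mac, macrophages), with points for single libraries and bars for the mean ± SD (n = 3). The class II chain, invariant chain and H2-DM genes stand higher in macrophages than in neutrophils, and *Cd80* stays near the floor of detection in all 4 groups.

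Between genes, levels were compared per kilobase of exon, which is a rough scale because priming at the poly-A tail leaves reads mainly from the 3′ end. In saline macrophages *Cd74* led with 1193 CPM per kb, followed by *H2-Ab1* at 595.8 ± 68, *H2-Aa* at 405.2 ± 4.38 and *H2-Eb1* at 344.2 ± 30 CPM per kb (SD, n = 3). The H2-DM genes came next, with *H2-DMb1* at 138.9 and *H2-DMa* at 68.76 CPM per kb. *Cd86* was at 11.91, *Cd40* at 4.154, *Ciita* at 1.599 and *Cd80* at 0.3127 CPM per kb. In saline macrophages the chain genes, the invariant chain and H2-DM thus stood above the regulator and the costimulation genes, per kilobase and in CPM alike. The order within these sets depended on the scale. In CPM, without the length, *H2-Aa* and *H2-Ab1* had overlapping mean ± SD ranges (1539 ± 16.65 and 1530 ± 174.5), as did *H2-DMa* and *H2-DMb1* (237.1 ± 23.55 and 233.5 ± 16.55) and *Ciita* and *Cd40* (15.25 ± 2.432 and 14.15 ± 3.643). In saline neutrophils *Cd74* also led (144.3 CPM per kb), while *H2-Aa*, *H2-Eb1* and *H2-DMa* lay close to each other at 27.65 ± 2.47, 23.39 ± 4.27 and 18.78 ± 1.98 CPM per kb. There *Cd86* stood below *H2-DMb1* per kilobase (9.519 against 15.52) but above it in CPM (34.85 against 26.09).

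With CGRP, macrophages gained RNA of the class II chains and of *Cd86* and lost RNA of *Cd40*. In limma-voom on the 6 macrophage libraries, 4 of the 9 genes tested rose (*H2-Aa*, *H2-Ab1*, *H2-Eb1* and *Cd86*) and 1 fell (*Cd40*), so that 5 of 9 were called where 7.43% of all genes tested were (3.46% rose and 3.97% fell). The groups did not overlap for 6 of the 9, against 24.1% of all genes tested. The median log2 fold change was 0.45 over the 9 genes and 0.0047 over all 9393 genes tested.

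*H2-Aa* encodes the alpha chain of the I-A molecule. Its libraries were at 1526, 1558 and 1533 CPM with saline and at 1910, 2299 and 2600 CPM with CGRP. The saline libraries lay close together and every CGRP library lay above them. *H2-Aa* rose 1.46-fold (log2 fold change 0.55, SE 0.131, adjusted p = 0.0161 in limma-voom).

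*H2-Ab1* encodes the beta chain that pairs with it. Its level was 1517, 1710 and 1362 CPM with saline and 2043, 1986 and 2293 CPM with CGRP, again with no overlap. *H2-Ab1* rose 1.38-fold (log2 fold change 0.46, SE 0.127, adjusted p = 0.0347 in limma-voom). The ratio of *H2-Aa* to *H2-Ab1* counts stayed near 1, at 1.006, 0.9107 and 1.125 with saline and 0.935, 1.158 and 1.134 with CGRP.

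*H2-Eb1* encodes the beta chain of I-E, whose alpha chain gene is not functional in C57BL/6 mice. It was at 621.6, 651.5 and 734.2 CPM with saline and at 827.9, 1131 and 1192 CPM with CGRP. Among the class II genes it had the largest fold change, a rise of 1.55-fold (log2 0.63, SE 0.147, adjusted p = 0.0133 in limma-voom).

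*Cd74* (ENSMUSG00000024610, on chromosome 18) was at 2033, 1890 and 2085 CPM with saline and at 2210, 2713 and 3416 CPM with CGRP. The groups did not overlap, but the CGRP libraries spread widely and the change missed the threshold (log2 fold change 0.45, 95% interval 0.14 to 0.76, adjusted p = 0.0789 in limma-voom). The call depended on the fit: *Cd74* passed in 3 of 8 alternatives, with adjusted p between 0.0113 and 0.132 over the 8.

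The H2-DM genes gave no call. *H2-DMa* was at 223.9, 223 and 264.2 CPM with saline and at 260.2, 316.8 and 326.7 CPM with CGRP, which overlap (log2 fold change 0.34, 95% interval 0.05 to 0.63, adjusted p = 0.165 in limma-voom). *H2-DMb1* had a mean of 233.5 ± 16.55 CPM in saline libraries and 262 ± 30.53 CPM in CGRP libraries (SD, n = 3; log2 fold change 0.16, 95% interval −0.12 to 0.44, adjusted p = 0.561 in limma-voom). *H2-DMb1* shares 37.6% of its 31-base sequences with its near copy *H2-DMb2*, so its counts are uncertain, though *H2-DMb2* itself had at most 12 counts in any macrophage library. In saline neutrophils *H2-DMb2* had 39, 33 and 36 counts, beside 79, 103 and 64 of *H2-DMb1*. The neutrophil values of *H2-DMb1* and its difference between cell types share this limit. *H2-DMa* overlaps *Brd2* on the opposite strand, and the strand setting of the counting is not given in the sources used here. The log2 fold change of *Brd2* in macrophages was 0.16 (adjusted p = 0.599 in limma-voom).

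*Ciita*, the regulator of these genes, was low and did not pass the test. The saline libraries held 43, 53 and 47 counts of it, and the CGRP libraries 36, 55 and 36. The group means were 15.25 ± 2.432 and 16.82 ± 4.709 CPM (SD, n = 3). The log2 fold change was 0.09 with a 95% interval of −0.46 to 0.65 (adjusted p = 0.890 in limma-voom), an interval that includes the fold changes of the chain genes *H2-Aa*, *H2-Ab1* and *H2-Eb1*. *Ciita* overlaps *Dexi* on the opposite strand, which had at most 48 counts in any library and rose in macrophages (log2 fold change 1.32, adjusted p = 0.0166 in limma-voom).

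*Cd86* and *Cd40* moved in opposite directions. *Cd86* was at 39.6, 43.03 and 48.24 CPM with saline and at 83.11, 63.73 and 66.05 CPM with CGRP, so every CGRP library lay above every saline library. It rose 1.64-fold (log2 fold change 0.71, SE 0.165, adjusted p = 0.0136 in limma-voom). Behind these levels stood 136, 142 and 132 counts in the saline libraries and 259, 170 and 130 in the CGRP libraries.

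For *Cd40*, 48, 59 and 29 counts in the saline libraries stood against 18, 16 and 7 in the CGRP libraries, which is 13.97, 17.88 and 10.6 CPM against 5.776, 5.998 and 3.557 CPM. It fell by 1.40 on the log2 scale (SE 0.338, 95% interval −2.12 to −0.69, adjusted p = 0.0169 in limma-voom), the largest change among the 9 genes. The ratio of *Cd86* to *Cd40* counts was 2.833, 2.407 and 4.552 in the saline libraries and 14.39, 10.62 and 18.57 in the CGRP libraries. With CGRP, *Cd40* was at 1.5 ± 0.396 CPM per kb (SD, n = 3).

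*Cd80* was near the floor of detection, taken as 3 counts. Its counts in macrophages were 4, 4 and 3 with saline against 9, 8 and 4 with CGRP, and no fold change is given.

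**Figure D2:**
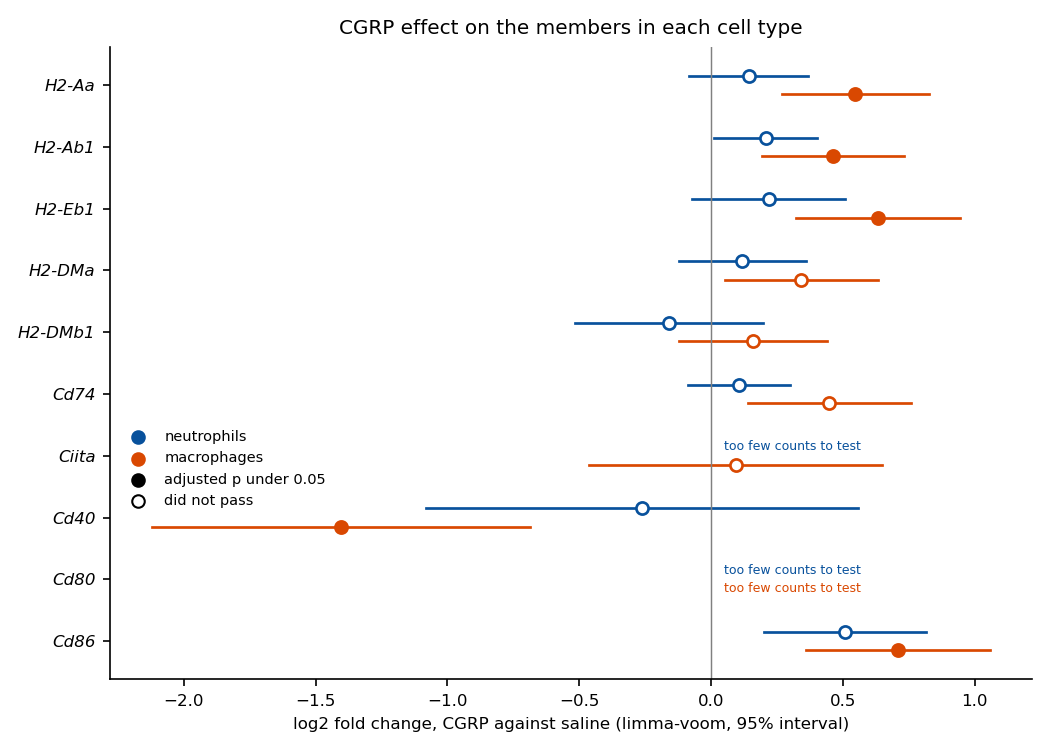
Log2 fold change of CGRP against saline with its 95% interval for the genes tested in neutrophils (8) and macrophages (9). Filled points have an adjusted p under 0.05 in limma-voom, which are 4 rises and 1 fall in macrophages and none in neutrophils.

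The summed class II level in the CGRP libraries of macrophages was ordered like their depth, in reverse. The 6 class II genes summed to 6138, 6282 and 6212 CPM with saline and to 7493, 8692 and 10130 CPM with CGRP, and the totals of those 3 CGRP libraries were 3259073, 2692858 and 2002559 counts. The part of depth in this was not tested. The calls also depended on single libraries. Without macrophage saline library 1 none of the 9 genes passed, without CGRP library 2 or CGRP library 3 only *Cd86* did, and without saline library 2 or saline library 3 there were 4 calls. The log2 fold changes kept their direction in these fits, at 0.45 to 0.67 for *H2-Aa*, 0.39 to 0.55 for *H2-Ab1*, 0.54 to 0.80 for *H2-Eb1*, 0.58 to 0.79 for *Cd86* and −1.56 to −1.22 for *Cd40*.

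In neutrophils no gene of the group passed the test. Of the 8 genes tested, 0 had an adjusted p under 0.05 in limma-voom, where 2.53% of all genes tested did (1.51% rose and 1.02% fell), and 2 of the 8 (*H2-Ab1* and *Cd86*) had an unadjusted p under 0.05, against 12.8% of all genes tested. edgeR and DESeq2 also gave 0. The median log2 fold change was 0.13 over the 8 genes and 0.0008 over all 9819 genes tested.

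*Cd86* came closest. Its libraries were at 33.02, 34.47 and 37.05 CPM with saline and at 55.42, 52.83 and 39.05 CPM with CGRP, with no overlap, as for 17.8% of all genes tested. The log2 fold change was 0.51 (SE 0.148, 95% interval 0.20 to 0.82, adjusted p = 0.0813 in limma-voom), and CGRP library 3 lay nearest to the saline libraries. Without that library *Cd86* passed, with an adjusted p of 0.0129 in limma-voom.

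The neutrophil class II genes had small differences. *H2-Ab1* was at 121.5, 128.3 and 129 CPM with saline and at 154.5, 147.6 and 133.8 CPM with CGRP, which do not overlap (log2 fold change 0.21, 95% interval 0.01 to 0.40, adjusted p = 0.348 in limma-voom). *H2-Aa* was at 106.2, 95.02 and 113.6 CPM and at 121.7, 101.6 and 126.4 CPM, which overlap. For *Cd74*, means of 242.3 ± 5.514 CPM (saline) and 262 ± 32.41 CPM (CGRP) were found (SD, n = 3), with a 95% interval of its log2 fold change from −0.09 to 0.30. The log2 fold changes of *H2-Eb1*, *H2-DMa* and *H2-DMb1* were 0.22, 0.12 and −0.16. None of these differences passed after adjustment over all genes tested.

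*Cd40* counts in neutrophils were 12, 13 and 17 with saline against 7, 14 and 13 with CGRP, with a 95% interval of its log2 fold change from −1.08 to 0.56. *Ciita* had 2, 10 and 6 counts against 3, 7 and 2, and *Cd80* 4, 2 and 3 against 9, 6 and 3. At this depth, changes of these 3 genes in neutrophils were not detectable unless large.

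The CGRP effect was not shown to differ between the cell types for any of the 9 genes tested. The interaction in limma-voom over the 12 libraries gave 0 calls among them, where 2.36% of all genes tested passed, and an unadjusted p under 0.05 for 2 (*H2-Aa* and *Cd40*), against 13.2% of all genes tested. The macrophage effect minus the neutrophil effect was 0.41 on the log2 scale for *H2-Aa* (95% interval 0.05 to 0.77, adjusted p = 0.283) and −1.13 for *Cd40* (95% interval −2.23 to −0.04, adjusted p = 0.354). For *Cd86* it was 0.22 (95% interval −0.24 to 0.69, adjusted p = 0.755), which leaves room for effects of like size and for a larger one in either cell type.

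In each list of genes around the pathway, at most 2 genes were called in either cell type. The lists were counted in the same fits, in which 1.51% of all genes tested rose and 1.02% fell in neutrophils, and 3.46% rose and 3.97% fell in macrophages. Some lists lay above these shares, such as the genes downstream of CD40 with 2 of 9 higher in neutrophils. Counts of 1 or 2 genes in a list rest on few genes, and nothing is read from them about a list. The list of accessory genes of the class II pathway (14 listed) held proteases, further class II genes, *March1*, *March8* and *Cd83*, among others. In this list *Ctsl*, which encodes the protease cathepsin L, rose in both cell types. It was the 1 call among the 12 tested in neutrophils and among the 10 tested in macrophages. Its level was 2624, 2839 and 2328 CPM with saline and 4245, 3955 and 3373 CPM with CGRP in macrophages (log2 fold change 0.57, adjusted p = 0.0119 in limma-voom). In neutrophils it was 136.1, 129.5 and 124.3 CPM against 173.3, 176.4 and 154.9 CPM (log2 fold change 0.37, adjusted p = 0.0296 in limma-voom).

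Among 14 tested regulators of class II transcription, 1 was called in each cell type, where 2.53% of all genes tested were called in neutrophils and 7.43% in macrophages. *Ifngr1*, the ligand-binding subunit of the interferon gamma receptor, rose in macrophages from 312.1, 333.9 and 345.4 CPM to 627, 621.2 and 660 CPM (log2 fold change 0.95, adjusted p = 8.39e-05 in limma-voom). *Irf8*, a transcription factor of myeloid cells, fell in neutrophils from 137.4, 110.3 and 145.7 CPM to 71.02, 70.44 and 78.99 CPM (log2 fold change −0.83, adjusted p = 1.83e-04 in limma-voom). The log2 fold change of *Irf8* in macrophages was −0.27 (adjusted p = 0.288 in limma-voom), and its CGRP effect was not shown to differ between the cell types (interaction 0.57, adjusted p = 0.110 in limma-voom). For *Ifngr1* in macrophages and *Irf8* in neutrophils the saline and CGRP libraries did not overlap, and both calls held without any 1 library.

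Of 8 tested genes for other costimulatory and inhibitory ligands, *Cd48*, a ligand of CD244, fell in both cell types. In limma-voom it fell by 0.71 on the log2 scale in macrophages (adjusted p = 1.56e-03) and by 0.50 in neutrophils (adjusted p = 0.0197). *Cd274*, which encodes the inhibitory ligand PD-L1, rose in macrophages from 27, 29 and 28 counts to 46, 50 and 39 (log2 fold change 0.97, adjusted p = 0.0281 in limma-voom).

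Downstream of CD40, 2 of 9 genes rose in each cell type, where 1.51% of all genes tested rose in neutrophils and 3.46% in macrophages. They were *Nfkb2*, a subunit of non-canonical NF-κB, and *Relb*, its partner, in macrophages (log2 fold changes 0.91 and 0.68, adjusted p = 0.00906 and 0.0355 in limma-voom), and *Nfkb2* and the adaptor gene *Traf1* in neutrophils (0.60 and 1.36, adjusted p = 0.0258 and 0.0229). In macrophages, where *Cd40* itself fell, 5 of the 9 had a log2 fold change above 0 and 4 below. The lowest was *Tnfaip3*, an inhibitor of NF-κB signalling, with 26, 25 and 25 counts against 13, 8 and 6 (log2 fold change −1.17, adjusted p = 0.0594 in limma-voom). Of 13 tested MHC class I genes none was called in macrophages by limma-voom, with an unadjusted p under 0.05 for 4 of them (19.8% of all genes tested), and the immunoproteasome genes *Psmb8* and *Psmb9* fell in neutrophils (log2 fold changes −0.34 and −0.43, adjusted p = 0.0249 and 0.0207 in limma-voom). Most of these calls were lost in some fits with a library left out, in which the direction was kept. The log2 fold change of *Nfkb2* in neutrophils, for example, was 0.51 to 0.64 in these fits, that of *Psmb8* −0.38 to −0.31 and that of *Ctsl* 0.34 to 0.43. In neutrophils the call was lost without any 1 of the 6 libraries for *Nfkb2*, without saline library 1 or 2 or CGRP library 1 or 2 for *Traf1* and *Cd48*, and without saline library 1 or 2 or CGRP library 2 or 3 for *Psmb8* and *Psmb9*. *Psmb8* was also lost without saline library 3, and for *Ctsl* in neutrophils the call held only where CGRP library 3 was the one left out. In macrophages *Ctsl* and *Nfkb2* were lost without saline library 1 or CGRP library 2, *Relb* and *Cd274* also without saline library 2 or CGRP library 3, and *Cd48* in none of the 6 cases. Other settings also ended calls. Of 8 alternatives each, *Relb* in macrophages and *Nfkb2* in neutrophils were lost in 3 (adjusted p up to 0.0872 and 0.138), *Ctsl*, *Psmb8* and *Psmb9* in neutrophils in 2 (up to 0.234, 0.115 and 0.0779), and *Cd274* in macrophages and *Cd48* in neutrophils in 1 (0.0508 and 0.0937).

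**Figure D3:**
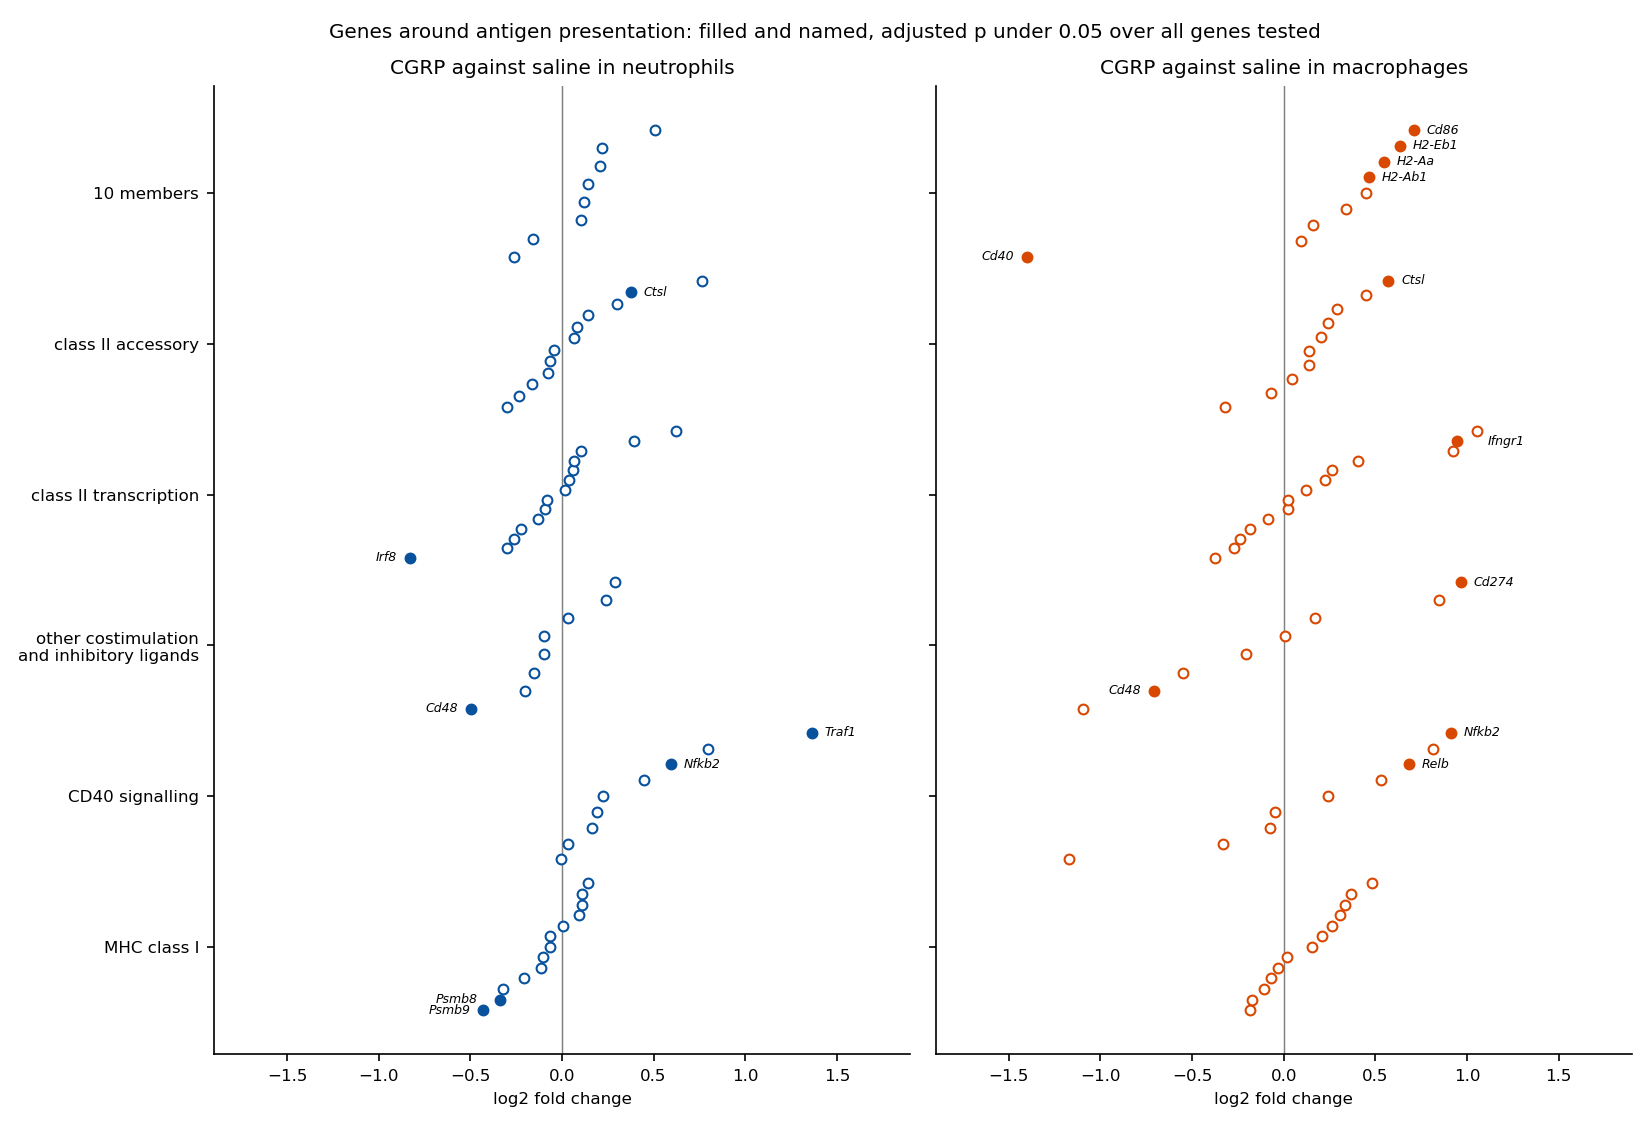
Log2 fold change of CGRP against saline for the 10 genes (those tested) and the 5 lists of further genes, in neutrophils (left) and macrophages (right), 1 point per gene tested. Filled, named points have an adjusted p under 0.05 in limma-voom, and in macrophages *Cd40* is the lowest of them.

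Markers of other cells were followed with CGRP as well. In macrophages the summed dendritic cell markers, of cells that carry much class II, were at 292.3, 280 and 247.1 CPM with saline and at 244.8, 256.8 and 273.9 CPM with CGRP, with *Bst2* the most abundant and *Xcr1* at 0. Of the 5 dendritic cell markers tested, *Batf3* fell, from 95, 95 and 65 counts to 16, 8 and 4 (log2 fold change −2.92, adjusted p = 5.82e-05 in limma-voom), and none rose by the test. *Ccr7* and *Cd209a* had a higher CPM in every CGRP library than in any saline library and missed the threshold. Groups that did not overlap, in either direction, were found for 24.1% of all genes tested in macrophages. *Clec10a* went the other way, with means of 58.13 CPM (saline) and 48.88 CPM (CGRP). Of the 5 markers tested, 3 had a log2 fold change above 0 and 2 below. *Ccr7* was at 12.52, 11.51 and 10.96 CPM with saline against 14.12, 18.37 and 23.88 CPM with CGRP (log2 fold change 0.61, adjusted p = 0.180 in limma-voom). In the CGRP libraries, though not in the saline libraries, it had the library order of the class II sum. *Cd209a* had 6, 13 and 4 counts against 15, 14 and 12 (log2 fold change 1.21, adjusted p = 0.125 in limma-voom). In CPM this was 1.747, 3.939 and 1.462 against 4.813, 5.248 and 6.097, with the CGRP libraries again in the order of the class II sum. *Bst2* gave 172 CPM of the saline sum of 273.1 CPM, so the sum mostly follows that gene. The B cell markers together gave 150.9 ± 14.03 CPM (saline) and 137.5 ± 10.95 CPM (CGRP), with none of the 3 tested called in limma-voom (1 had an unadjusted p under 0.05), and the 4 markers named above as at 0 with saline were at 0 with CGRP too. The neutrophil markers in macrophages summed to 285.3, 345.1 and 264.2 CPM with saline against 395.7, 364.4 and 349.1 CPM with CGRP. All 5 of those tested had a log2 fold change above 0 (median 0.38), none was called in limma-voom, and 2 had an unadjusted p under 0.05. The monocyte and macrophage markers summed to 38320 ± 8238 CPM (saline) and 40810 ± 3402 CPM (CGRP), with 9 of the 10 above 0 (median log2 fold change 0.17) and 1, *Ccr2*, called lower. The part of these cells in the rise of the class II chain genes was not tested. In neutrophils the B cell markers gave 764.6 ± 22.51 CPM (saline) and 703.1 ± 17.42 CPM (CGRP), none of the 9 tested was called in limma-voom (1 had an unadjusted p under 0.05), and 2 of the 9 monocyte and macrophage markers tested fell. These were *Lyz2*, which is not particular to monocytes (log2 fold change −0.39, adjusted p = 0.0296 in limma-voom), and *Ccr2* (−0.49, adjusted p = 1.34e-03). Of these 9 markers, 3 had a log2 fold change above 0.

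**Figure D4:**
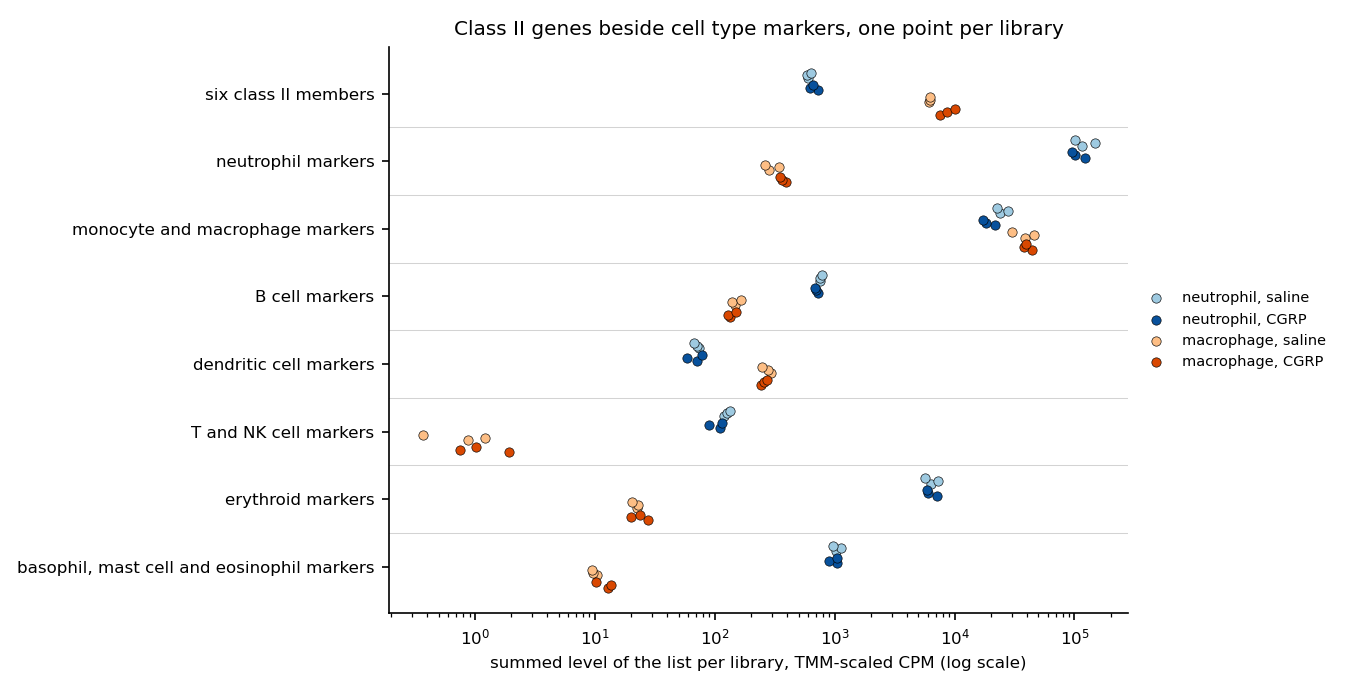
Summed level in CPM (log axis) of the 6 class II genes and of 7 lists of cell type markers in each library, by group. The B cell and erythroid markers are higher in neutrophil than in macrophage libraries. Saline and CGRP libraries lie close together on this axis for the B cell and dendritic cell markers. In neutrophils the B cell sums did not overlap, at 753.5, 749.7 and 790.5 CPM with saline and 722.7, 697.1 and 689.4 CPM with CGRP.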

How the data were processed

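RNA-seq was analysed in 12 libraries, 3 for each of 4 groups set by the sample labels. The authors primed cDNA at the poly-A tail with unique molecular identifiers, ran nfCore/RNAseq with its umi function, aligned to GRCm38 with STAR, counted with featureCounts and deposited raw counts per gene, 1 table per cell type. The annotation release, the strand setting and any low-count filter are not given in the sources used here. At these depths 3 counts, the floor, correspond to between 0.826 and 1.50 CPM, counting error only.

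Genes were filtered with edgeR's filterByExpr, scaled by TMM and tested with limma-voom, the test named in the study's methods (two-sided, Benjamini–Hochberg over all genes tested, threshold 0.05). Each cell type was fitted on its own 6 libraries, and the interaction and the saline comparison of cell types on all 12. The other settings tried were DESeq2, its size factors, edgeR's quasi-likelihood test, totals without TMM, no filter, at least 10 counts in every library, the replicate number as a block, one fit over 12 libraries, and leaving out each library. Steps were tested on simulated data.

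The members and lists were chosen with earlier results of these data known. Named are the 10 members, called genes of each further list, abundant markers, genes that overlap or share sequence with a member, and the 5 genes most like *Cd74* and *Cd86*, apart from items that are not reported here. *Ccr7*, *Cd209a*, *Clec10a*, *Tnfaip3*, *Xcr1* and the B cell markers other than *Ighm* fall outside this rule and were chosen after their values were seen. The symbols of 2 listed genes had been turned into dates and were matched by identifier. Positions are from GENCODE M21. No batch is given in the labels. Software: R 4.3.3, limma 3.58.1, edgeR 4.0.16, DESeq2 1.42.0, Python 3.11.15, pandas 2.3.3 and matplotlib 3.10.9.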

Additional observations from a re-analysis of the deposited data

Results flagged for a closer look

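The CGRP effect on *Ifngr1* differed between the cell types: the macrophage effect exceeded the neutrophil effect by 0.90 on the log2 scale (adjusted p = 2.35e-04, interaction in limma-voom over 12 libraries). The log2 fold change was 0.95 in macrophages and 0.06 in neutrophils (adjusted p = 0.827), where the libraries were at 409, 397.2 and 406.1 CPM with saline and at 428.7, 426.5 and 406.8 CPM with CGRP. The difference passed in each of the 7 alternatives run and in all 12 fits with a library left out.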

How the results depend on the processing

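The count of genes called was 137 in place of 248 (neutrophils) and 1050 in place of 698 (macrophages) in one fit over 12 libraries. Leaving out 1 library gave 138 to 234 calls in neutrophils, 347 to 765 in macrophages and 149 to 328 for the interaction. Calls among the 10 genes were 0 in neutrophils in all 8 alternatives (0 to 1 with a library left out). In macrophages they were 5 in 4 alternatives, 6 with no filter, the block or one fit over 12 libraries (*Cd74* added), and 4 with at least 10 counts in every library, where *Cd40* could not be tested. Leaving out 1 library gave 0 to 6. Directions reversed for genes without a call: *Psmb8* in macrophages without TMM (−0.034, from 0.019), and with a library left out *Cd40* in neutrophils (−0.50 to 0.094), *Ciita* in macrophages (−0.095 to 0.38) and in the interaction (−0.025 to 1.03), and *Psmb8* (−0.038 to 0.093) and *Psmb9* (−0.16 to 0.012) in macrophages. The cause was not tested.

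Libraries with the same replicate number did not all deviate together (correlations 0.04, −0.01 and 0.14 in neutrophils and 0.06, −0.18 and 0.27 in macrophages), nor did every library correlate best with its own number, and neither these values nor the labels settle whether the numbers mark shared mice or days. Replicate 3 had the lowest total in all 4 groups. A replicate block gave 289 calls in neutrophils (240 of them among the 248), 1007 in macrophages, 337 in the interaction and 7434 between cell types, and of the 10 genes 0 and 6 passed with CGRP. Of the 10 genes, *Ciita*, *Cd40* and *Cd80* had the lowest CPM in each group, and so the fewest counts behind their values.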

Other observations

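Over the 12 libraries, the profiles most like that of *Cd74* (smallest root mean square difference of centred log2 CPM among 10123 genes) included those of *C1qa*, a complement subunit, at 0.114, and of *Ctsd*, *Plbd2* and *Cmtm3* at 0.178 to 0.205. Those most like *Cd86* were *Ints6*, *Sec23b*, *Clec4n*, *Gdi2* and *Sfxn3*, at 0.188 to 0.211. The libraries share cell types and treatment, so this likeness is a description.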
